A study of Homo sapiens with 12 samples.

Results

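The replication-dependent histone genes are the 66 genes, of 43876 in the deposited table, whose symbol starts with HIST1H, HIST2H, HIST3H or HIST4H, or that carry the newer names of the same genes (H1-1 to H1-5, H2AC, H2BC, H3C or H4C with a number). Genes named as pseudogenes were left out. By histone type they comprised 6 H1, 15 H2A, 17 H2B, 13 H3 and 15 H4 genes, and by cluster 52 HIST1, 11 HIST2, 2 HIST3 genes and 1 HIST4 gene. The genes were measured by RNA-seq in MV4-11, a human acute myeloid leukemia cell line carrying FLT3-ITD and given as wild-type in the sample labels. The cells were cultured for 24 h with DMSO, with 20 nM mitoxantrone-liposome (Mito-Lipo, which the labels call mitoxantrone), with 25 nM gilteritinib, an inhibitor of the FLT3 kinase, or with 20 nM mitoxantrone-liposome plus 20 nM gilteritinib (Com). Each condition had 3 libraries, numbered 1 to 3, so that 12 libraries of 1 cell line were compared. The labels do not say whether the 3 libraries were separate cultures, so the p-values measure the spread between these libraries, which may be technical. The gilteritinib dose was 20 nM in Com and 25 nM alone, and the comparisons between these arms are therefore not of equal doses.

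Replication-dependent histones are made in S phase, when new DNA has to be packed into nucleosomes. H2A, H2B, H3 and H4 form the core around which DNA is wound, and H1 binds the linker DNA between cores. Their mRNAs are unusual in ending in a stem-loop, bound by SLBP, instead of a poly(A) tail, and they are degraded quickly when DNA synthesis stops. Mitoxantrone is a topoisomerase II poison. Since RNA was taken from whole cultures, fewer cells in S phase and less histone mRNA per cell cannot be told apart here.

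The stem-loop is shown because it marks these mRNAs and because the gene models differ in whether they contain it. In GENCODE 29 (GRCh38), 64 of the 66 genes had a coding transcript. Of these gene models, 28 held the coding part alone, without any 3' end, and the other 36 were longer. A pattern of 16 letters (6 paired letters starting with GG, G-T pairs allowed, around a loop of 4 with T at loop positions 1 and 3) was searched after the stop codon and was found in 31 of those 36, in 7 H2A, 11 H2B, 5 H3 and 8 H4 genes and in no H1 gene. Among H1 genes, only the models of HIST1H1E and HIST1H1T went beyond the coding part, so the others had no 3' end to search. Where found, the pattern began 22 to 67 bases after the stop codon, with a median of 35. The same pattern was found anywhere in 5.4% of 83054 coding transcripts of other genes. The letters are written 5' to 3' as DNA, with the pattern in capitals.
HIST1H2AE, chr6:26217412-26217437, plus strand: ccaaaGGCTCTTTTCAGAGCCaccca
HIST1H2AG, chr6:27133510-27133535, plus strand: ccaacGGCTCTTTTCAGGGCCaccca
HIST1H2BC, chr6:26123467-26123492, minus strand: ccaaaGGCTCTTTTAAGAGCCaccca
HIST1H2BN, chr6:27865773-27865798, plus strand: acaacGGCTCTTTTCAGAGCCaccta
HIST1H3H, chr6:27810511-27810536, plus strand: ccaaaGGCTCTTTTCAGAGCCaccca
HIST1H4J, chr6:27824454-27824479, plus strand: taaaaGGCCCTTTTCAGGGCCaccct
HIST1H4B, chr6:26026896-26026921, minus strand: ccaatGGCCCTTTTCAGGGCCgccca
HIST2H4A, chr1:149833027-149833052, plus strand: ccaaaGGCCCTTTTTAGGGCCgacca
The form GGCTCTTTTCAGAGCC was found in 17 genes, of H2A, H2B and H3. All 8 H4 genes carried a GGCCC stem, 5 of them as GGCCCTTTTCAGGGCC and 3 as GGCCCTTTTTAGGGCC. In 18 of the 31 genes the model went on for more than 120 bases past the stem-loop, by up to 1917 bases. As FPKM divides by the length of the model, such genes are listed at a lower FPKM than a coding-only model would give if most fragments lie before the stem-loop, and levels of genes with different models should be compared with this in view.

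The promoters are shown because most of these genes were lower together in one of the conditions. In the RefSeq promoter table (GRCh38.p14, 250 bases before to 50 after the start), 61 of the 66 genes were matched. HIST1H3D and HIST1H2AD had the same entry, which starts near HIST1H2AD and was counted once, for that gene, so that 60 promoters were searched. The RefSeq start of HIST1H2BE lay 11702 bases from the start of its gene model. CCAAT, on either strand, was in 83.3% of the histone promoters and in 35.7% of all 27305 promoters. It was in each of the H1, H2A, H2B and H3 promoters but in 3 of 13 H4 promoters. TATAA was in 91.7% of the histone promoters and in 21.1% of all promoters. The octamer ATGCAAAT, the site of OCT1 and related factors, was in 38.3% and 1.8%. It was found in 13 of 17 H2B and 10 of 14 H2A promoters and in none of the H1, H3 and H4 promoters. Windows of neighbouring H2A and H2B genes can overlap, so that the same site can be counted for both. The octamer of HIST2H2BE, for example, also lay in the window of HIST2H2AC. These are matches of letters and not measured binding. The 120 bases before the start are given for 5 genes named in the results, with all matches of these 3 motifs on either strand in capitals. In HIST1H1B and HIST2H2AC the TATAA match overlaps a match on the other strand.
HIST1H1B, chr6:27867589-27867708, minus strand: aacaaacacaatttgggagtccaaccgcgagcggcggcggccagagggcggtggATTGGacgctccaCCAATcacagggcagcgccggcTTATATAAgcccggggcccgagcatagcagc
HIST1H2AC, chr6:26124052-26124171, plus strand: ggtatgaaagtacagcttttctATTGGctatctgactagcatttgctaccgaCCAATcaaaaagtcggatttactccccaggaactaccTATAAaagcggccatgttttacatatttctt
HIST1H2BI, chr6:26272811-26272930, plus strand: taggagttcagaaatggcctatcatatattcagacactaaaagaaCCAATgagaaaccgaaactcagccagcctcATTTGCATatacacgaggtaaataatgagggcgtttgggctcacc
HIST2H2AC, chr1:149886798-149886917, plus strand: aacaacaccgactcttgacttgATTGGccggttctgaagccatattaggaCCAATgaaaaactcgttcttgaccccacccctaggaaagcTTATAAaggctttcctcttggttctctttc
HIST2H3D, chr1:149813694-149813813, minus strand: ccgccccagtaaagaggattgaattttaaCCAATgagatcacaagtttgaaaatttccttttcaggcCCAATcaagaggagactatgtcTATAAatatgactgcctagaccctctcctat

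The deposited values are FPKM, fragment counts scaled to the length of the gene and to the number of mapped fragments. Depth, recovered from the steps that single fragments leave in the FPKM, was 31708250 to 41316500 fragments per library. Of 58 tested histone genes with a known length, 48 had over 1000 fragments per library on average, and counting error at the mean was 1.48% for HIST1H2BI, for example. All 7 myeloid markers checked were expressed, with FLT3 at 132 to 171 FPKM, while a T cell marker (CD3E, up to 0.0284 FPKM) and an epithelial marker (EPCAM, up to 0.0894 FPKM) were close to 0. Libraries also differed by replicate number in many genes, as tested further on, and comparisons are therefore also given within replicate number. The labels name a reverse transcription of mRNA by the Geo-seq method, and how far RNAs without a poly(A) tail were captured is not stated. RN7SL1, another RNA without such a tail, was at 21722 to 52761 FPKM.

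Most of the histone genes were abundant. Of the 66 genes, 41 had a mean FPKM of at least 100, 18 were between 1 and 100, and 7 were under 1. The 3 highest were H3C2 (HIST1H3B) with 1240, HIST1H2AJ with 1086 and HIST1H4C with 1062 FPKM, and the most abundant linker histone was HIST1H1B with 950 FPKM. HIST1H2BC led the H2B genes with 630 FPKM. A filter of at least 1 FPKM in at least 3 libraries kept 60 of the 66 genes. The 6 others had means from 0.0179 (HIST1H4G) to 0.621 FPKM (HIST1H2AD) and included HIST1H1T, the testis linker histone, at 0.539 FPKM.

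**Figure D1:**
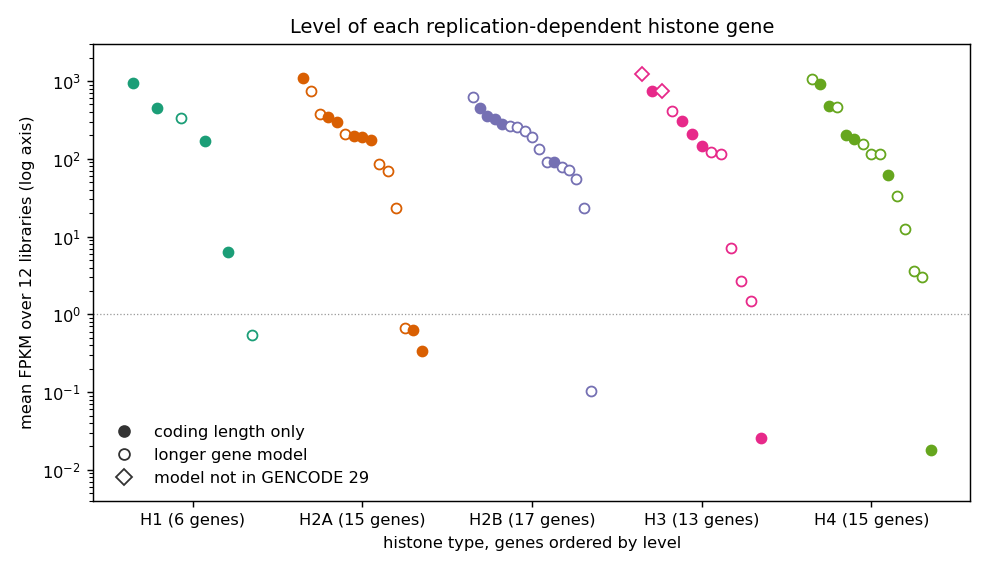
Mean FPKM over 12 libraries on a log axis (vertical) of each of the 66 genes, by histone type (horizontal) and ordered by level within a type. Filled circles are gene models of coding length only, open circles are longer models, and diamonds are the 2 genes whose models were not in GENCODE 29. Of the 66 genes, 41 are at 100 FPKM or more, and 7 lie under the dotted line at 1 FPKM.

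Summed over the 66 genes, the FPKM were 17858, 18045 and 17366 in the DMSO libraries 1 to 3, and 12414, 13770 and 14760 with Mito-Lipo. They were 23446, 18189 and 19789 with gilteritinib, and 14533, 18548 and 16385 with Com. The 3 Mito-Lipo sums lay below each of the other sums except that of Com library 1, and the 3 gilteritinib sums lay above each DMSO sum. The mean was 17757 ± 351 with DMSO, 13648 ± 1178 with Mito-Lipo, 20474 ± 2695 with gilteritinib and 16489 ± 2010 with Com (SD, n = 3 each). The Mito-Lipo mean was thus 0.769 times and the gilteritinib mean 1.15 times that of DMSO. By type, the ratio of the Mito-Lipo mean to the DMSO mean was 0.799 for H1, 0.754 for H2A, 0.804 for H2B, 0.726 for H3 and 0.783 for H4. For gilteritinib these ratios ran from 1.09 for H3 to 1.27 for H4. The types kept their shares of the sum within a few percentage points, with H1 at 10.7% to 12.1%, H2A at 20.2% to 24.0%, H2B at 17.5% to 22.5%, H3 at 21.7% to 26.3% and H4 at 18.8% to 24.4% over the 12 libraries. No test was made on these sums.

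The first comparison asked how the histone genes stood after Mito-Lipo. Of 60 genes tested, 58 were below DMSO, with a median log2 fold change of -0.36 against 0.03 over all 18574 genes tested. All fold changes are on the log2(FPKM + 1) scale. All 16 H2B genes were below DMSO (median -0.31), as were all 12 H3 genes (-0.42) and all 14 H4 genes (-0.38). Of the 13 H2A genes 12 were below (-0.37), and of the 5 H1 genes 4 were below (-0.27). In 31 of the 60 genes the 3 Mito-Lipo libraries lay below all 3 DMSO libraries, which held for 5.9% of all genes. In 49 genes Mito-Lipo was below DMSO at each of the 3 replicate numbers, against 14.8% of all genes. The 2 genes above DMSO were HIST2H2AA4 (0.55) and HIST1H1A (0.02), both named after their values were seen.

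No histone gene passed an adjusted p of 0.05 in limma with Benjamini-Hochberg adjustment, and neither did any other gene in this comparison (0%). At an unadjusted p under 0.05, 24 histone genes were lower and 0 were higher, where 2.94% and 4.95% of all genes were. With the replicate number as a block 37 were lower (6.46% of all genes), and without Mito-Lipo library 2 the count was 13. For counts with a library left out, here and below, the share of all genes was not computed. Such counts show only how far a count depended on single libraries. With libraries 2 and 3 only, a choice made after seeing the data, 14 of the 60 genes passed the adjusted p of 0.05, all lower, against 6.41% of all genes. The median of the 60 genes was -0.49, -0.38 and -0.17 within replicate numbers 1, 2 and 3.

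HIST1H2BI, an H2B gene with a coding-only model, had the smallest p of the 60. It was at 372, 349 and 326 FPKM in DMSO and at 257, 238 and 269 FPKM in Mito-Lipo, with no overlap. Its log2 fold change was -0.45 ± 0.10 (SE), with an adjusted p of 0.397 in limma. HIST1H2AC, an H2A gene, was at 96.2, 87.8 and 89.3 FPKM in DMSO and at 64.1, 71.8 and 74.6 in Mito-Lipo, again with no overlap (-0.37 ± 0.09, adjusted p = 0.4003). For HIST1H2AL the values were 203, 202 and 218 FPKM in DMSO and 121, 146 and 108 in Mito-Lipo, the largest difference of the 3 (-0.74 ± 0.17, adjusted p = 0.4003). In these 3 genes every Mito-Lipo library was under every DMSO library.

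The most abundant genes of each type were also lower, without passing the adjusted test. The linker histone HIST1H1B was at 1006, 956 and 948 FPKM in DMSO and at 713, 711 and 789 in Mito-Lipo (-0.40 ± 0.11). The other abundant H1 genes, HIST1H1C, HIST1H1E and HIST1H1D, had log2 fold changes of -0.27, -0.22 and -0.34. Of the H2A genes, HIST1H2AJ, HIST1H2AE, HIST1H2AI and HIST1H2AH lay between -0.50 and -0.30. The H2B genes HIST1H2BC, HIST1H2BK and HIST1H2BO were at -0.23, -0.26 and -0.20, and the Mito-Lipo and DMSO libraries overlapped in all 3. H3C2 was at 1337, 1301 and 1276 FPKM in DMSO and at 885, 990 and 1083 in Mito-Lipo (-0.41 ± 0.12), and HIST1H3F, H3C3 (HIST1H3C) and HIST1H3H lay between -0.40 and -0.34. HIST1H4C was at 1018, 1131 and 1032 FPKM in DMSO and at 626, 965 and 1015 in Mito-Lipo (-0.32 ± 0.21). All 3 Mito-Lipo libraries were below DMSO in that gene, but libraries 2 and 3 by little. HIST1H4D, HIST1H4F and HIST1H4B had values of -0.46, -0.35 and -0.38.

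**Figure D2:**
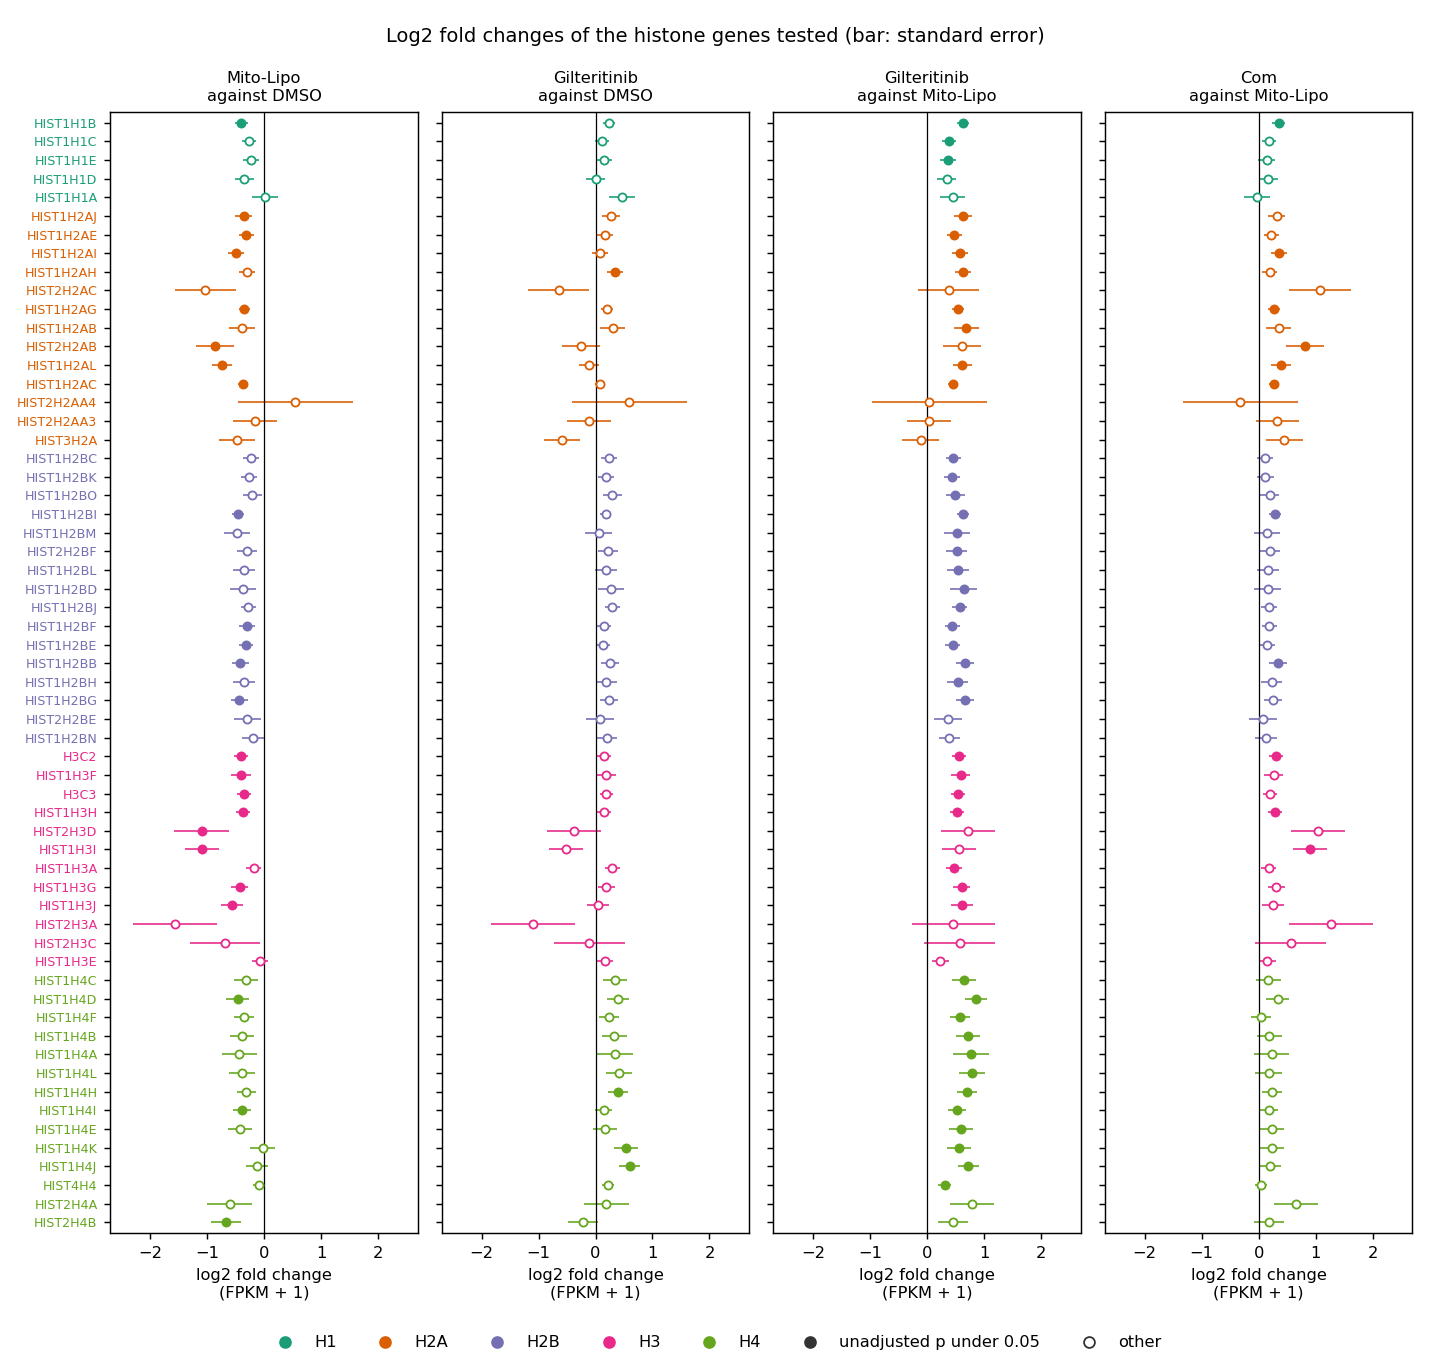
Log2 fold change on the log2(FPKM + 1) scale (horizontal, bars are standard errors) of the 60 histone genes tested (vertical, coloured by type), in 4 comparisons. Filled points have an unadjusted p under 0.05 and open points do not. In the panel of Mito-Lipo against DMSO 58 points lie left of 0, and in the panel of gilteritinib against Mito-Lipo 59 lie right of 0.

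Gilteritinib against DMSO showed the other direction in most genes, with smaller differences. Of the 60 genes, 50 were above DMSO, with a median log2 fold change of 0.19 against -0.03 over all genes. Within replicate numbers 1, 2 and 3 the median was 0.33, 0.05 and 0.18, where that of all genes was -0.06, 0.02 and -0.04. The H4 genes had the highest median (0.33, 13 of 14 above), followed by H2B (0.19, 16 of 16), H3 (0.15, 8 of 12), H1 (0.15, 5 of 5) and H2A (0.08, 8 of 13). The gilteritinib libraries were all above the DMSO libraries in 18 genes (2.18% of all genes), and 36 genes were above at each replicate number (9.51%). No histone gene and no other gene passed the adjusted p in limma (0%). At an unadjusted p under 0.05, 4 genes were higher (0.565% of all genes) and 0 lower (1.3%). That count depended on single libraries, with 7 without DMSO library 1, 1 without DMSO library 3, 2 without gilteritinib library 1, 10 without gilteritinib library 2 and 2 without gilteritinib library 3. Without gilteritinib library 1, 5 genes were lower, and the share of all genes was not computed for these fits. With the replicate block 7 were higher (1.26%) and 2 lower (3.7%), and with libraries 2 and 3 only 2 genes passed the adjusted p (0.614% of all genes), HIST1H3A above and HIST2H3A below DMSO, both of them H3 genes.

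The 3 genes with the smallest p in this comparison were 2 H4 genes and an H2A gene. HIST1H4J was at 33.5, 29.1 and 25.9 FPKM in DMSO and at 53.2, 50.6 and 33.6 with gilteritinib, higher by 0.60 ± 0.19 (SE) on the log2 scale. HIST1H4K was at 56.6, 56.9 and 45.8 FPKM in DMSO and at 87.7, 64.9 and 80.1 with gilteritinib (0.53 ± 0.21). The coding sequences of HIST1H4J and HIST1H4K were identical over 312 bases, so that fragments could be split between both. Their fragments together were 30.2, 28.6 and 24.0 per 1000000 in DMSO and 47.2, 39.1 and 37.5 with gilteritinib, with no overlap between the conditions. HIST1H2AH was at 380, 348 and 313 FPKM in DMSO and at 466, 410 and 438 with gilteritinib (0.34 ± 0.14).

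The widest separation was between gilteritinib and Mito-Lipo. Of the 60 genes 59 were higher with gilteritinib, with a median log2 difference of 0.55, and in 46 the libraries did not overlap (5.25% of all genes). At an unadjusted p under 0.05, 44 genes were higher (2.96% of all genes), between 37 and 47 with any of the 6 libraries left out. They included 14 of 16 H2B, 12 of 14 H4, 8 of 13 H2A, 7 of 12 H3 and 3 of 5 H1 genes. No gene of the table passed the adjusted p in limma (0%). HIST1H2BI, at 257, 238 and 269 FPKM with Mito-Lipo and 436, 364 and 387 with gilteritinib, had an adjusted p of 0.221 (0.63 ± 0.10) and of 0.0554 with the replicate block. HIST1H1B, at 713, 711 and 789 FPKM against 1341, 1032 and 1074, had the same pair of adjusted p-values in limma (0.63 ± 0.11). The H2A gene HIST1H2AG, at 151, 173 and 175 FPKM against 281, 222 and 229, followed with 0.235 and 0.0683 (0.54 ± 0.10). In each of these 3 genes gilteritinib library 1 was the highest of the 6 libraries. With libraries 2 and 3 only, 23 of the 60 genes passed the adjusted p, all higher, against 6.63% of all genes.

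The mean of Com was above that of Mito-Lipo in 58 and below that of gilteritinib in 53 of the 60 genes. Against DMSO, 53 of 60 genes were lower, but the median was -0.11, and it was -0.02 without Com library 1 and -0.21 without Com library 2. Within replicate numbers 1, 2 and 3 it was -0.30, 0.07 and -0.10. No histone gene passed the adjusted p of 0.05 in limma, and 1 other gene did (0.00538%). At an unadjusted p under 0.05, 0 were lower (0.84% of all genes) and 0 higher (0.829%), and the replicate block gave 1 lower (2.32%). Leaving out Com library 2 gave 7 lower and leaving out DMSO library 2 gave 2. The Com libraries were all below the DMSO libraries in 2 genes (3.16% of all genes), and with libraries 2 and 3 only 0 genes passed the adjusted p (0.0485% of all genes). Those 2 genes were HIST1H2AL and HIST1H3H, the latter named after its values were seen. HIST1H2AL was at 122, 195 and 182 FPKM in Com against 203, 202 and 218 in DMSO. HIST2H4B and HIST1H4F, the next by p, differed by -0.49 ± 0.26 and -0.30 ± 0.17, and their libraries overlapped with DMSO.

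Against Mito-Lipo, 58 of 60 genes were higher in Com, with a median log2 difference of 0.23. The median was 0.12 without Com library 2 and 0.14 without Mito-Lipo library 1. The libraries did not overlap in 15 genes (3.22% of all genes). No histone gene passed the adjusted p in limma (0% of all genes), and 11 were higher at an unadjusted p under 0.05 (1.41%), 17 with the replicate block (3.6%). The count was 7 without Mito-Lipo library 2, 18, 3 and 5 without Com library 1, 2 and 3, and 12 genes passed the adjusted p with libraries 2 and 3 only, all higher (6.13% of all genes). HIST1H1B was at 901, 992 and 935 FPKM in Com against 713, 711 and 789 in Mito-Lipo, and HIST1H2AC at 78.7, 89.5 and 86.2 FPKM against 64.1, 71.8 and 74.6. Their DMSO values were 1006, 956 and 948 and 96.2, 87.8 and 89.3 FPKM. In both genes Com libraries 1 and 3 lay below each DMSO library, and Com library 2 lay within the DMSO range. Both were named for a small p in Com against Mito-Lipo, so they do not stand for the other histone genes.

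Against gilteritinib, 53 of 60 genes were lower in Com, with a median of -0.31, but this differed by replicate number. The median was -0.61 for number 1, -0.01 for number 2 and -0.29 for number 3, and -0.20 without Com library 1. All 14 H4 genes (median -0.48) and all 16 H2B genes (-0.33) were lower. The libraries did not overlap in 19 genes (2.33% of all genes). No histone gene passed the adjusted p in limma (0%), while 18 were lower at an unadjusted p under 0.05 (0.829% of all genes) and 0 higher. With the replicate block 36 were lower (1.91%) and 3 higher (2.48%), and without gilteritinib library 1 or Com libraries 1, 2 or 3 the count of lower genes was 5, 4, 33 or 8. Without gilteritinib library 1, 4 were higher, and the share of all genes was not computed for these fits. With libraries 2 and 3 only, 0 passed the adjusted p (0.0754% of all genes). HIST1H2BI was at 284, 348 and 300 FPKM in Com and at 436, 364 and 387 with gilteritinib (-0.35 ± 0.10). HIST1H2AH and HIST1H4F followed with -0.44 ± 0.14 and -0.53 ± 0.17.

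Some H2A and H3 genes, mostly of the HIST2 cluster on chromosome 1, showed another order of libraries. It was seen in the interaction, which is Com minus gilteritinib minus Mito-Lipo plus DMSO and so compares the combination with the sum of the single drugs. Over the 60 genes its median was 0.04. It ranged from -0.08 to 0.14 with a library left out, and was below 0 without Mito-Lipo library 1 (-0.03) or Com library 2 (-0.08). HIST1H3I, an H3 gene of the HIST1 cluster, had the smallest p. It was at 300, 238 and 261 FPKM in DMSO, 184, 111 and 94.6 in Mito-Lipo, 291, 126 and 169 with gilteritinib, and 197, 260 and 253 in Com. Libraries 2 and 3 of both single drugs were low, and libraries 2 and 3 of DMSO and Com were not. The interaction was 1.43 ± 0.42 (SE) on the log2 scale. HIST2H3A (2.37 ± 1.04) and HIST3H2A (1.04 ± 0.45) came next, the latter with 1.0 to 43.0 fragments per library and above 1 FPKM only in library 1 of DMSO, Mito-Lipo and Com.

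The same order of libraries was seen in more H2A and H3 genes, which were chosen after their values were seen. HIST2H2AC was at 407, 326 and 313 FPKM in DMSO and at 387, 324 and 367 in Com. It was at 348, 144 and 96.1 in Mito-Lipo and at 543, 115 and 172 with gilteritinib, so that library 1 was not low in either drug. HIST2H3D was at 415, 346 and 327 FPKM in DMSO and at 386, 344 and 314 in Com, against 281, 178 and 94.96 in Mito-Lipo and 629, 149 and 228 with gilteritinib. HIST2H2AB showed 137 and 75.2 FPKM in Mito-Lipo libraries 2 and 3 and 110 and 202 in gilteritinib libraries 2 and 3, where DMSO and Com were between 206 and 237. These genes rested on over 1000 fragments in the lowest library, except HIST2H3A and HIST3H2A. H2AFX and H1FX, which code for the variants H2A.X and H1.X, were also low in libraries 2 and 3 of both single drugs. H2AFX was at 94.3, 39.2 and 35.2 FPKM in Mito-Lipo and at 141, 47.3 and 58.7 with gilteritinib, against 94.9 to 132 in DMSO and Com. H1FX was at 15.6, 8.23 and 7.43 FPKM in Mito-Lipo and at 21.9, 7.53 and 7.42 with gilteritinib, but Com libraries 2 and 3 were also low with 10.8 and 9.50. The GC content of the gene models was 62.8% for HIST2H2AC and HIST2H2AB, 67.4% for HIST2H3D, 62.5% for HIST1H3I, 61.2% for HIST2H3A and 57.7% for HIST3H2A, where the 64 models ran from 41.6% to 67.4% with a median of 57.4%. The part of GC content in these values was not tested.

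No gene passed the adjusted p in limma for the interaction (0%). At an unadjusted p under 0.05, 5 histone genes were higher (1.43% of all genes) and 0 lower, and with the replicate block 8 were higher (3.56%) and 1 lower (3.84%). The count of 5 became 6 without Mito-Lipo library 1, 11 without gilteritinib library 1, and 1 to 3 without any of the other 10 libraries. With libraries 2 and 3 only, 5 of 60 genes passed the adjusted p (2.97% of all genes). They were HIST2H3A, HIST1H3I, HIST2H2AC, HIST3H2A and HIST2H2AA3, with interactions of 3.33, 2.08, 2.72, 1.41 and 0.74. This fit was chosen after the data were seen and uses the libraries in which the single drugs were low. Its calls are therefore no separate support for that order of libraries. HIST3H2A was under 1 FPKM in each library numbered 2 or 3, with 1 to 27 fragments, so its call has little support. HIST2H3A rested on 72 and 45 fragments in Mito-Lipo libraries 2 and 3. For HIST2H2AA3 summed with its identical copy HIST2H2AA4, depth-scaled fragments in libraries 2 and 3 were 78.8 and 16.5 in Mito-Lipo. They were 19.7 and 113 with gilteritinib, 21.1 and 56.6 in DMSO, and 84.8 and 23.7 in Com. In the pair, neither single drug was thus low in both libraries. The HIST2 genes had a median of -0.67 in Mito-Lipo against DMSO, next to -0.36 for the HIST1 genes, and of -0.12 next to 0.19 in gilteritinib against DMSO. These differences between clusters were not tested.

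Replicate number was tested next, since the labels give the same numbers in each condition. In an F test of the replicate number with condition in the model, 14 of 60 histone genes had an adjusted p under 0.05, against 27.9% of all genes, so that the share was near the background. Of the 60 genes, 9 passed with replicate 1 lowest, where 8.47% of all genes tested did. Another 5 of the 60 passed with replicate 1 highest, where 19.2% of all genes tested did. The 9 were 8 H2B genes and HIST1H1A, and the 5 were 3 H2A and 2 H3 genes, including HIST3H2A. That gene passed the filter on low values only through 3 replicate 1 libraries, so its being highest there is no finding. Whatever the p, the mean of replicate 1 was lowest in 30 of the 60 genes and highest in 24, against 30.5% and 57.4% of all genes. It was lowest in 13 of 16 H2B, 9 of 14 H4, 3 of 5 H1, 4 of 13 H2A and 1 of 12 H3 genes, and differences between types were not tested. HIST2H2AA3 had the smallest p, at 29.1, 33.2, 35.5 and 37.1 FPKM in library 1 of DMSO, Mito-Lipo, gilteritinib and Com, where libraries 2 and 3 lay between 14.1 and 20.9. Summed with its identical copy HIST2H2AA4, however, library 1 was not the highest of any condition: the fragments per 1000000 were 38.9, 21.1 and 56.6 in DMSO, 76.5, 78.8 and 16.5 in Mito-Lipo, 53.4, 19.7 and 113 with gilteritinib, and 40.2, 84.8 and 23.7 in Com. HIST1H2BN went the other way, at 19.1, 16.9, 23.9 and 16.4 FPKM in library 1 and at 20.4 to 28.3 in libraries 2 and 3 of these conditions. HIST2H3A and HIST2H3C were higher in replicate 1, with mean log2 values of 3.75 and 2.57 against at most 2.23 and 1.33 in replicates 2 and 3. Across 58 genes with a known GC content, the difference of replicate 1 from replicates 2 and 3 had a Spearman rho of 0.435 with it. This is a description across genes that share their libraries. The count of 14 was 9 without DMSO library 3 or without Mito-Lipo library 3, 7 without gilteritinib library 3 and 8 without Com library 3.

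**Figure D3:**
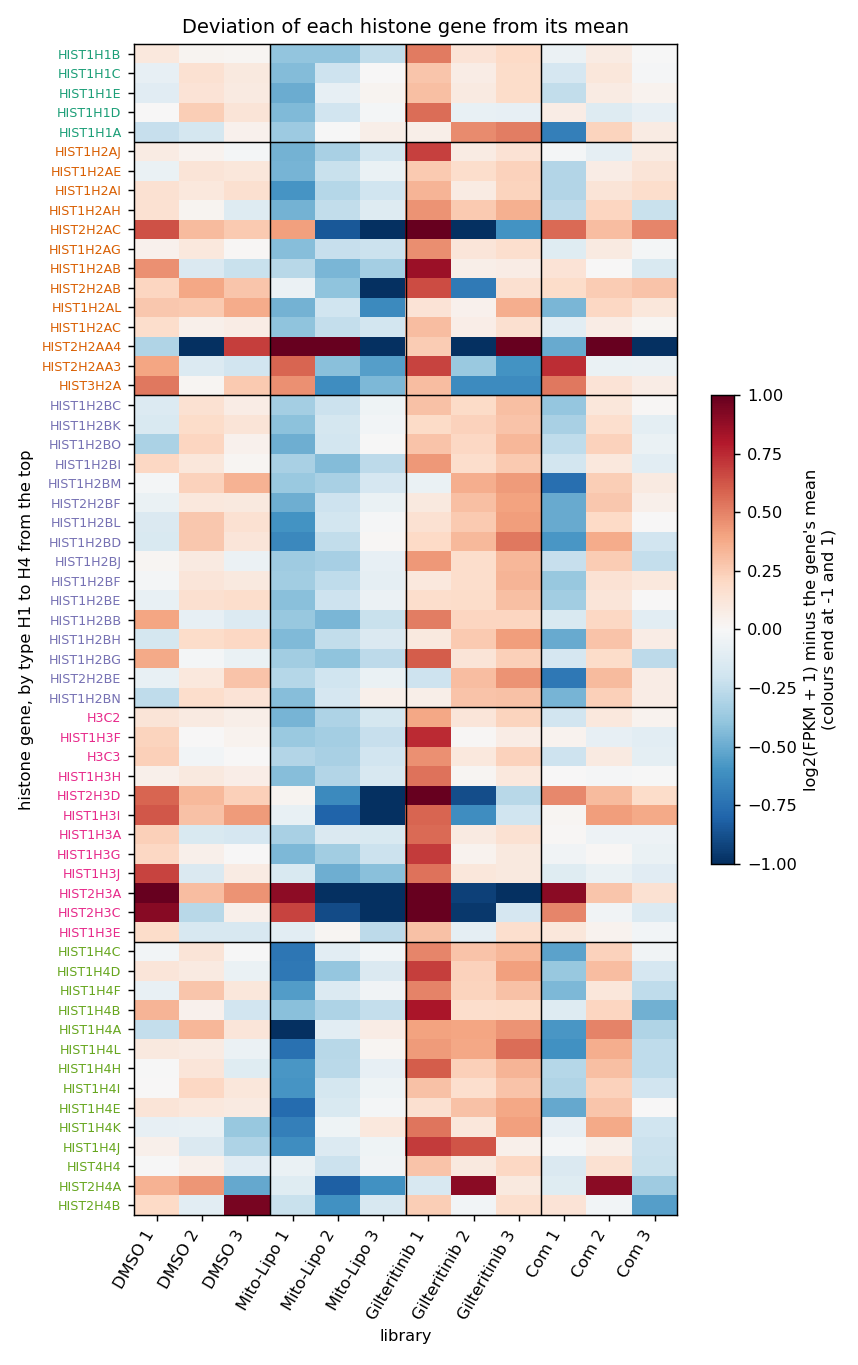
Difference of log2(FPKM + 1) from the mean of the gene (colour, ending at -1 and 1) in each of 12 libraries (horizontal, by condition) for the 60 histone genes tested (vertical, by type). The Mito-Lipo columns are blue in most genes, strongest in library 1, and the gilteritinib columns are red, while HIST2H2AC, HIST2H3D, HIST2H3A and HIST1H3I are dark blue in libraries 2 or 3 of both drugs.

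Genes that act on histone genes and their mRNA had medians closer to 0 than the histone genes, a difference that was not tested. In none of the lists below did a gene pass the adjusted p in Mito-Lipo against DMSO. Of 6 tested genes for histone gene transcription, 5 were lower with Mito-Lipo (median -0.11), and 0 had an unadjusted p under 0.05, or 1 with the replicate block. NPAT, the coactivator of histone genes in S phase, was at 12.2, 10.7 and 10.7 FPKM in DMSO and at 10.2, 10.4 and 10.2 in Mito-Lipo, and CDK2 differed by -0.22 ± 0.14. CCNE1 and CCNE2, the cyclins E, differed by -0.16 ± 0.22 and -0.10 ± 0.11. Of 11 genes for the processing of the histone 3' end, 8 were lower (median -0.10) and 4 had an unadjusted p under 0.05. SLBP, which binds the stem-loop, was at 65.9, 68.5 and 73.7 FPKM in DMSO and at 57.6, 58.1 and 59.3 in Mito-Lipo, with no overlap (-0.25 ± 0.08). LSM11, a subunit of the U7 particle, and CPSF2 differed by -0.25 ± 0.08 and -0.18 ± 0.06, while the abundant SRRT and SYMPK differed by 0.11 ± 0.16 and 0.05 ± 0.08. Of 8 genes for translation and decay of histone mRNA, 2 were lower and 0 had an unadjusted p under 0.05 (median 0.01). The exonuclease ERI1 was at -0.14 ± 0.16, ZCCHC11 (the uridylyl transferase TUT4) at 0.17 ± 0.11, EXOSC10 at -0.10 ± 0.09, LSM1 at 0.01 ± 0.10 and UPF1 at 0.00 ± 0.13.

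Genes of S phase were lower with Mito-Lipo as the histone genes were. All 14 were lower with Mito-Lipo than with DMSO, with a median of -0.25, and 5 had an unadjusted p under 0.05, or 12 with the replicate block. RRM1, a subunit of ribonucleotide reductase, was at 83.3, 82.2 and 81.9 FPKM in DMSO and at 62.2, 64.6 and 70.2 in Mito-Lipo. The helicase subunit MCM6 was at 116, 122 and 120 FPKM against 84.8, 95.3 and 99.1, and POLA1 at 34.8, 33.3 and 34.9 against 26.1, 30.0 and 28.9. In these 3 genes no libraries overlapped. MCM4 and MCM7 differed by -0.34 ± 0.12 and -0.26 ± 0.10. PCNA, the sliding clamp, was at 262 FPKM in Mito-Lipo library 1, above DMSO, and differed by -0.15 ± 0.09. In gilteritinib against DMSO 11 of the 14 were higher with a median of 0.06, and in Com against DMSO 12 were lower with a median of -0.04. All 14 were higher in gilteritinib than in Mito-Lipo (median 0.31), and all 14 were higher in Com than in Mito-Lipo (0.21).

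Of 16 histone chaperones tested, 15 were lower with Mito-Lipo (median -0.18), 3 of them at an unadjusted p under 0.05, or 9 with the replicate block. RBBP7, TONSL and SUPT16H had the smallest p, with -0.21 ± 0.07, -0.36 ± 0.13 and -0.19 ± 0.08. MCM2 and NASP, which carry histones at the fork and in the nucleus, differed by -0.28 ± 0.13 and -0.23 ± 0.12. Of 11 genes listed as replication-independent histones, a label that was not tested here, 7 were lower and 5 had an unadjusted p under 0.05 (median -0.13). H2AFX and H1FX, given above, differed by -1.26 ± 0.41 and -1.08 ± 0.39, and H2AFZ was at 202, 208 and 201 FPKM in DMSO and at 142, 180 and 186 in Mito-Lipo. The genes of the replacement histone H3.3 did not show this difference, with H3F3A at 0.02 ± 0.13 and H3F3B at 0.02 ± 0.13. Of the 7 myeloid markers 4 were lower and 3 higher, with a median of 0.00, and MEIS1 alone had an unadjusted p under 0.05 (0.18 ± 0.08).

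Other RNAs without a poly(A) tail were set beside the histone genes, as all of them pass through the same library steps. Of 5 tested, 3 were lower with Mito-Lipo (median -0.06) and 0 had an unadjusted p under 0.05 in any of the comparisons. RN7SL1, the RNA of the signal recognition particle, was at 35334, 28397 and 21722 FPKM in DMSO and at 26448, 25984 and 40750 in Mito-Lipo. It was thus lower with Mito-Lipo at replicate numbers 1 and 2 and higher at number 3. It was at 46697, 39603 and 47596 FPKM with gilteritinib, above each DMSO library as the histone sum was, and at 29935, 52761 and 27511 in Com, where library 2 was highest as it was for the histone sum. The U4 RNAs RNU4-1 and RNU4-2 were at 100 to 214 and 102 to 176 FPKM in the 4 libraries numbered 1 and at no more than 58.2 and 80.2 in the others. RNY1 and VTRNA1-1 were at 1.96 to 12.8 and 1.002 to 5.73 FPKM. The part of the capture of such RNAs in the histone values was not tested.

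Some members could not be told from a copy or a neighbour. Besides HIST1H4J and HIST1H4K, the coding sequences of HIST2H2AA3 and HIST2H2AA4 (393 bases), of HIST2H3A and HIST2H3C (411 bases) and of HIST2H4A and HIST2H4B (312 bases) were identical. HIST2H2AA4 was at 40.7, 18.2 and 81.9 FPKM in DMSO, 103, 124 and 15.04 in Mito-Lipo, 60.2, 18.7 and 187 with gilteritinib and 35.2, 130 and 21.6 in Com, with no order by condition or number. Fragments of HIST2H3A and HIST2H3C together were 35.8, 14.2 and 16.7 per 1000000 in DMSO, 24.9, 3.47 and 1.88 in Mito-Lipo, 33.1, 4.95 and 6.13 with gilteritinib and 24.0, 14.7 and 13.3 in Com. The pair thus showed the same order of libraries as HIST2H2AC. In 3 genes at least 80% of the exon bases were shared with another gene, namely HIST1H3D, HIST1H2AD and HIST1H2AM, and none of them passed the filter. Whether fragments were counted by strand is not stated in the sources used here.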

How the data were processed

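One table of FPKM, made by the authors and deposited without counts, was used for the 12 libraries. Per the labels, Bowtie 0.12.9, Cufflinks 2.1.1, HTSeq and DESeq2 were used, with no roles given. The labels also name the mouse build mm10, although the gene identifiers are human, so the build and annotation behind the FPKM are not known. Symbols, lengths and positions came from GENCODE 29 and RefSeq.

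Tests used limma 3.58.1 in R 4.3.3 on log2(FPKM + 1), two-sided, for 18574 genes with at least 1 FPKM in at least 3 libraries. The model had 1 mean per condition over all 12 libraries, variances moderated with a trend, and p-values adjusted over all genes by Benjamini-Hochberg. The replicate number was an F test, and as a block it was an alternative. After removing the mean of each condition, libraries with the same number correlated in each of 18 pairs. The r was 0.491 to 0.657 for number 1 and 0.165 to 0.474 for numbers 2 and 3. As the differences within a condition then cancel, a difference shared by libraries 1 alone also makes libraries 2 and 3 correlate. The numbers were taken to pair the libraries. Pairs with different numbers were not compared, so for numbers 2 and 3 this was assumed and not shown. The limma step was tested on simulated data.

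The members and lists were chosen with earlier results of these data known. Genes named are the 4 most abundant of each type, the 3 with the smallest p per comparison, the 5 for the replicate number, and per list the 3 with the smallest p in Mito-Lipo against DMSO and the 3 most abundant. Depth was recovered by finding the number of fragments at which the FPKM steps are whole (tolerance 0.02 fragments). This held for 94.8% to 95.2% of 8308 to 8848 genes per library, and for at most 46.3% at another depth. Other alternatives were a pseudocount of 0.1, other filters and scalings, protein-coding genes only, fewer conditions and each library left out.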

Additional observations from a re-analysis of the deposited data

How the results depend on the processing

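The median of the histone genes kept its direction in all 6 comparisons between conditions under each alternative. The count of genes with an adjusted p under 0.05 stayed at 0 in each comparison and in the interaction with a pseudocount of 0.1, other filters, median-ratio scaling, quantile normalization, no trend, the replicate block, only the conditions compared, protein-coding genes only and each library left out. With libraries 2 and 3 only, an alternative set after the data were seen, 14 genes passed for Mito-Lipo (6.41% of all genes) and 2 for gilteritinib (0.614%), each against DMSO. Against Mito-Lipo, 12 passed for Com (6.13% of all genes) and 23 for gilteritinib (6.63%), and the interaction had 5 (2.97%). The cause was not tested. HIST3H2A and HIST2H2AA3, with the limits given above, were among the 12 and the 5, and HIST3H2A was also among the 14 for Mito-Lipo. For the replicate number the count was 14, 7 with no filter on low values, and 7 to 16 with a library left out, also chosen after seeing the data. The replicate block changed no call at the adjusted p. It cannot move a fold change in this balanced design, so the median for Mito-Lipo against DMSO was -0.36 in both fits by construction. Depth limits HIST3H2A, HIST2H3C, the genes under 1 FPKM, and HIST2H3A in Mito-Lipo libraries 2 and 3.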

Other observations

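Several genes of the lists were at or near 0 in all libraries, among them ASF1B (up to 0.0440 FPKM), IPO4 (up to 0.0138), DAXX (up to 0.255) and CASP8AP2 (up to 0.566). The build and annotation behind the FPKM are not known, and whether these genes were truly not expressed was not tested.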
